A study of Mus musculus with 4 samples.

Results

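The regions described here are 523 peaks of Musashi-1 (Msi1) CLIP-seq that were called at overlapping positions in both wild-type libraries of mouse intestinal epithelium. They were chosen by position, as the rows of the wild-type replicate 2 peak list with 1 bp or more in common with a same-strand row of the wild-type replicate 1 list. They make up 523 of the 5578 rows of that list, or 9.38%, among 240811 rows in the 4 lists of the series. The remaining 5055 rows of wild-type replicate 2 are called unshared below. Overlap between the wild-type lists is the rule that chose the regions, so it is described here and not tested.

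CLIP-seq uses ultraviolet light to join a protein to the RNA it touches, recovers the protein with an antibody, here against Msi1, and sequences the attached RNA fragments. The 2 wild-type libraries came from intestinal crypts of control mice of wild-type genotype without doxycycline. The 2 TRE-Msi1 libraries came from the whole intestinal epithelium of mice on doxycycline for 24 h, which carry an Msi1 transgene behind a doxycycline-responsive promoter. The sources used here give neither the transactivator that drives that promoter nor the strain or age of the mice. All 4 libraries share ultraviolet light of 265 nm, given as 2 pulses at 400 mJ per cm2, the same antibody and a membrane piece near 50 kD. Genotype, doxycycline and the cells taken changed together and cannot be told apart, and the study has no background control library among these samples. The labels name mice for each group and list the libraries as separate samples, so n = 2 per group.

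Musashi proteins carry RNA recognition motifs that bind short RNA elements built around UAG, often in the 3′ untranslated regions of mRNAs, and control the stability and translation of the bound message. In the intestine they are known from the crypt base, where stem cells reside, and the study treats them as oncoproteins of that tissue. A peak seen in both wild-type libraries is a position where RNA was recovered with Msi1 antibody from 2 preparations without a transgene. Without a background library, a bound position and a position on a very abundant RNA give the same kind of peak. Regions are named by position on the mouse build mm9 (1-based), without gene names, since an annotation of that build was not used. For the same reason the epithelial identity of the cells was not checked against marker genes, and no sequence is shown.

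The lists differ in form, and this touches each overlap below. Their lengths were 4863 and 5578 rows in wild-type replicates 1 and 2 and 189594 and 40776 rows in TRE-Msi1 replicates 1 and 2. Median widths were 74 and 75 bp in the wild-type lists, 40 bp in TRE-Msi1 replicate 1 and 75 bp in TRE-Msi1 replicate 2. Plus-strand rows made up 70.8% of the TRE-Msi1 replicate 1 list and 50.9 to 51.5% of the other lists. The authors' score in the fifth column is a whole number from 3 to 595 in wild-type replicate 2, and is 0 in every row of wild-type replicate 1. The sources used here state neither the unit of the score nor the read depth of any library.

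The shared regions were the strong end of the wild-type replicate 2 list. Their score had a median of 13 with quartiles of 8 and 30, against a median of 5 with quartiles of 3 and 9 in unshared rows. The lowest score was 3 in both kinds, and the highest was 595 in a shared and 451 in an unshared row. At a score of 3, 26 of 1345 rows were shared (1.93%, 95% Wilson interval 1.32 to 2.82%). From 10 to 14 the number was 94 of 904 (10.4%), and from 15 to 19 it was 54 of 160 (33.8%). Of the rows scored 50 or more, 67 of 74 were shared (90.5%, 81.7 to 95.3%). Sharing thus rose slowly up to a score of 14 and steeply above it. Weak rows still supplied a large part of the regions, since 191 of the 523 scored 3 to 9. Wilson intervals here and below cover counting error only and treat peaks as independent.

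**Figure D1:**
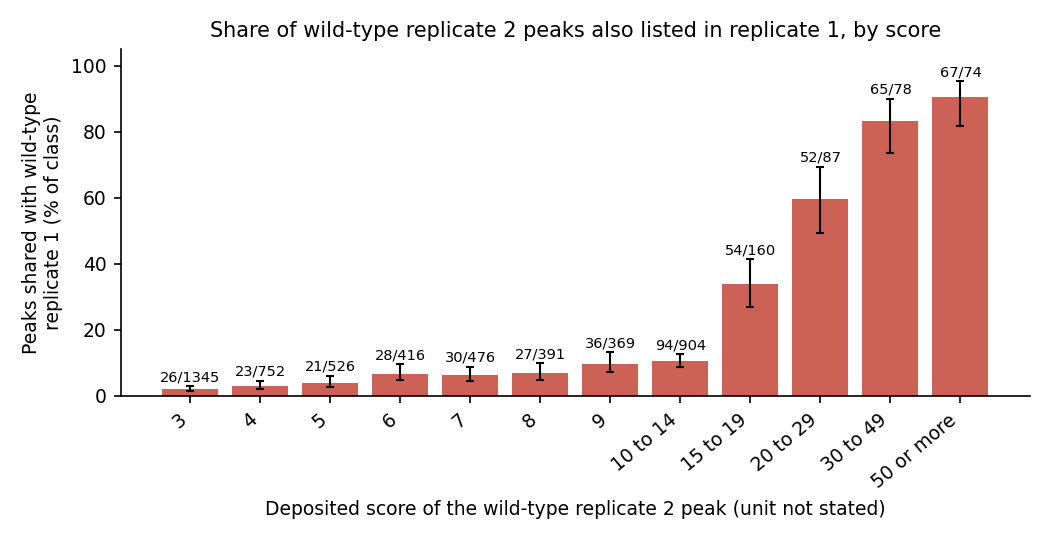
Share of wild-type replicate 2 peaks that overlap a wild-type replicate 1 peak on the same strand (vertical axis, percent) by class of the authors' score (horizontal axis); numbers above the bars are shared over all peaks and error bars are 95% Wilson intervals. The share is 1.93% at a score of 3 and 90.5% at 50 or more.

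Most shared regions had much of their width in common with the replicate 1 peak. Median widths of 74 and 75 bp cap this overlap, and the rule itself bounds the distance between centres. The median overlap with the replicate 1 peak was 58 bp (quartiles 39.5 and 70 bp, highest 74 bp), and 140 of 523 regions (26.8%) overlapped it by 70 bp or more. Peak centres lay a median of 15.5 bp apart, and within 1 bp of each other in 42 regions (8.03%). Read from the other list, 516 of the 4863 rows of wild-type replicate 1 (10.6%) were shared. Peaks of the lists did not always pair 1 to 1. While 22 regions met more than 1 replicate 1 row, 13 replicate 1 rows were the best partner of 26 regions at different positions, and 8 regions repeated an interval already listed. The replicate 1 partners stood early in their list, with a median row of 971. The score in replicate 2 rose with the place of the partner (Spearman's rho 0.48 across 523 regions, as a description of positions that share the 2 libraries).

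At the limit of the rule, 12 regions were shared by 1 to 5 bp and 4 unshared rows missed a replicate 1 peak by 1 to 5 bp. The 12 regions had a median score of 13, from 3 to 546, and TRE-Msi1 replicates 1 and 2 had a peak over 3 and 7 of them. The 4 rows just outside scored 5 to 9, and TRE-Msi1 replicates 1 and 2 had a peak over 1 and 2 of them.

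The 10 strongest shared regions came from few places. The 45S ribosomal RNA locus, the template of the precursor that is cut into the large ribosomal RNAs, lies on the plus strand of chromosome 17 at 39979942 to 39985774. It supplied the 3 highest scores, 595 at 39984539 to 39984613, 546 at 39983520 to 39983594 and 470 at 39984734 to 39984808. A further region there at 39984242 to 39984316 scored 337. The mitochondrial genome, whose transcripts include 2 abundant ribosomal RNAs, supplied regions with scores of 380 at 1482 to 1556, 364 at 867 to 941 and 281 at 828 to 902, all on the plus strand. The other 3 of the first 10 lay on chromosome 11 (minus) at 108873112 to 108873186 with a score of 368, chromosome 16 (minus) at 57391604 to 57391678 with 327, and chromosome 6 (plus) at 3151574 to 3151648 with 295. The replicate 1 partners of these 10 regions stood in rows 1 to 13 of that list.

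These abundant RNAs held the top of the list but few of the regions. Only 10 of the 523 regions (1.91%, 1.04 to 3.48%) lay in them, 5 in the mitochondrial genome and 5 in the 45S locus, with scores from 215 to 595. Among unshared rows they held 8 of 5055 (0.158%). Both wild-type lists had 6 rows in the 45S locus, and 5 of the 6 in replicate 2 were shared. The exception, at 39984946 to 39985020 with a score of 451, lay 141 bp from the nearest replicate 1 peak. In the mitochondrial genome the 5 shared regions all lay between positions 828 and 2594. Of the 7 unshared mitochondrial rows, 1 lay in that stretch, at 1394 to 1468 with a score of 340 and 15 bp from a replicate 1 peak. The other 6 lay between 11334 and 15292 and scored 11 to 57. TRE-Msi1 replicates 1 and 2 had peaks over 1 and 4 of the shared 45S regions and over 3 and 3 of the shared mitochondrial regions. The top region of all, at 39984539 on chromosome 17, overlapped no TRE-Msi1 peak, with gaps of 28 bp to replicate 1 and 97 bp to replicate 2. Without both places, 49.5% of the remaining regions overlapped TRE-Msi1 replicate 1, 58.3% replicate 2 and 31.2% both, close to the shares of all regions given below. Only these places were marked as abundant. Whether the remaining regions lie on other abundant RNAs was not tested, since no annotation was used.

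Outside these places, the strongest shared regions were strong in the TRE-Msi1 libraries as well. The percentile of a TRE-Msi1 peak is the share of rows of its own list with a score no higher. The chromosome 11 region (score 368) met peaks at percentiles 99.69 in TRE-Msi1 replicate 1 and 99.96 in replicate 2. The chromosome 16 region at 57391604 (327) met peaks at 99.79 and 99.92, and the chromosome 6 region (295) at 99.96 and 99.92. The chromosome 3 region (plus) at 5860738 to 5860812, with a score of 221, met peaks at 97.82 and 99.38. On chromosome 13 (minus) the region at 97960440 to 97960514 scored 199, with partners at 99.92 and 99.96. Those on chromosome 16 (minus) at 35981709 to 35981783 and chromosome 2 (minus) at 90235218 to 90235292 scored 189 and 176, with partners at 99.98 and 99.97 and at 98.73 and 99.35. These 7 of the 10 strongest overlapped both TRE-Msi1 lists, and the other 3 overlapped 1 list each. The pair on chromosome 5 (plus) split in this way. Its region at 147072889 to 147072963 (score 272) met a peak in TRE-Msi1 replicate 2 and lay 127 bp from one in replicate 1, and its neighbour at 147072712 to 147072786 (211) met a peak in replicate 1 and lay 60 bp from one in replicate 2. The region on chromosome 9 (plus) at 123371183 to 123371257 (197) met the replicate 1 peak and missed the replicate 2 peak by 23 bp. Each of these 3 regions thus had a peak of the missing library within 127 bp.

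Most shared regions were found again in the TRE-Msi1 libraries, though usually in only 1 of them. TRE-Msi1 replicate 1 had a peak over 258 of 523 (49.3%, 45.1 to 53.6%), where 9.25% of all wild-type replicate 2 rows had one. TRE-Msi1 replicate 2 had a peak over 306 (58.5%, 54.2 to 62.7%), against 15.6% of all rows. At least one list had a peak over 401 (76.7%, 72.9 to 80.1%; all rows 20.2%), and both had a peak over 163 (31.2%, 27.3 to 35.3%; all rows 4.63%). Replicate 1 alone accounted for 95 regions, replicate 2 alone for 143, and 122 (23.3%) overlapped neither. Regions found in replicate 2 were found in replicate 1 more often than those not found in replicate 2. Replicate 1 had a peak over 53.3% of the 306 regions found in replicate 2 and over 43.8% of the 217 not found there, with overlapping intervals of 47.7 to 58.8% and 37.3 to 50.4%. For unshared rows these shares were 16.8% of 564 and 3.63% of 4491. Epithelium is a mixture of cells, and in bulk libraries fewer cells of a type and less RNA per cell cannot be told apart. These shares compare lists of unequal length from single libraries, so they carry counting intervals and no p-value.

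At equal score, shared regions were found after induction much more often than unshared rows of the same library. For this, regions and unshared rows with exactly the same score were compared and the differences averaged with Mantel-Haenszel weights, which count a score value by how many rows of both kinds it holds. For TRE-Msi1 replicate 1 the weighted shares were 43.7% of shared and 9.22% of unshared rows, a difference of 34.5 percentage points (95% interval 29.3 to 39.6). For replicate 2 they were 50.5% and 16.5%, a difference of 34.0 points (28.7 to 39.3). For both lists together they were 24.0% and 4.68%, a difference of 19.3 points (14.96 to 23.7). The comparison rests on 424 regions and 5051 unshared rows over 39 score values, since 99 regions had a score that no unshared row had. With a reciprocal overlap of 50% the differences were 13.0 points for replicate 1 and 7.74 points for both lists. That rule asks for 50% of the wider peak, which is harder to meet for the narrower peaks of TRE-Msi1 replicate 1. Rows that share a transcript are not independent, but with 1 row per stretch of RNA the differences were 37.2, 32.8 and 20.3 points.

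The contrast was widest, relative to the unshared level, among weak peaks. Of the 191 shared regions scored 3 to 9, TRE-Msi1 replicate 1 had a peak over 45.5% (38.6 to 52.6%) and replicate 2 over 44.0% (37.1 to 51.1%). The 4084 unshared rows of that range were found at 4.19% (3.61 to 4.85%) and 9.99% (9.11 to 10.9%). From 20 to 49 the shares were 57.3% and 70.9% of 117 shared regions and 29.2% and 47.9% of 48 unshared rows. At 50 or more, 67.2% and 80.6% of the 67 shared regions were found, and 3 of the 7 unshared rows were found in each list. In that highest class the intervals of shared and unshared rows overlapped, and the number of unshared rows is too small to separate them.

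**Figure D2:**
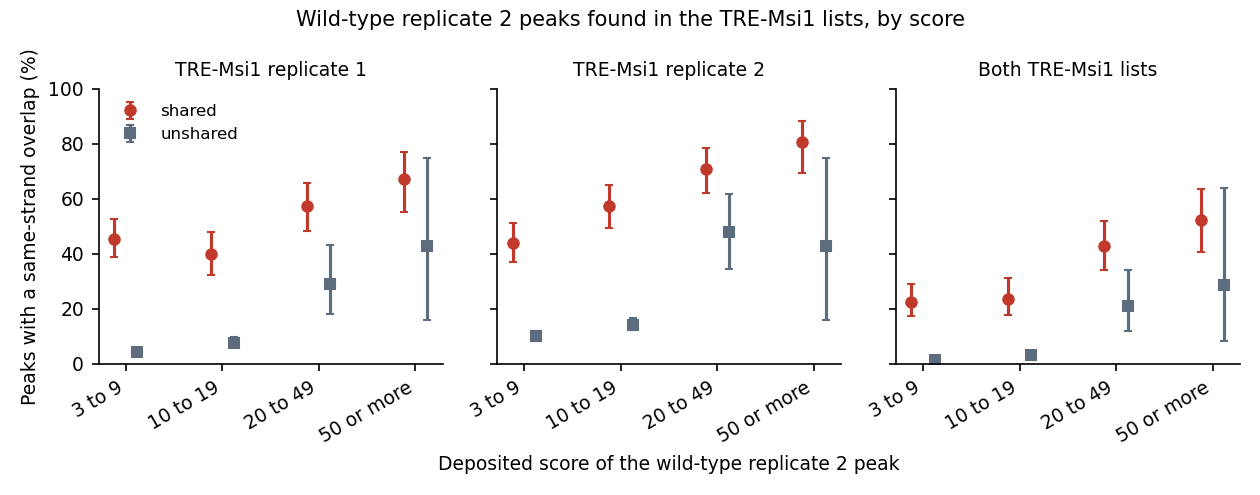
Share of wild-type replicate 2 peaks with a same-strand overlap in TRE-Msi1 replicate 1, in replicate 2 and in both lists (vertical axis, percent) by class of the authors' score (horizontal axis), for shared (circles) and unshared (squares) peaks, with 95% Wilson intervals. At scores of 3 to 9, replicate 1 overlaps 45.5% of shared and 4.19% of unshared peaks. The intervals meet at 50 or more in each panel, and for both lists also at 20 to 49.

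The same question read from the other wild-type list gave a different answer for TRE-Msi1 replicate 1. This comparison was chosen after the values above were seen. In wild-type replicate 1, where all scores are 0, row order stood in for the score, because row order and score ran closely together in wild-type replicate 2 (Spearman's rho -0.96 across rows). TRE-Msi1 replicate 1 had a peak over 262 of the 516 shared rows (50.8%), and also over 1832 of the 4347 unshared rows (42.1%; all rows of that list 43.1%). Within 10 equal parts of the row order the weighted shares were 49.4% and 50.5%, a difference of -1.06 points (-5.73 to 3.62). TRE-Msi1 replicate 2 had a peak over 299 of the shared rows (57.9%) and 1201 of the unshared rows (27.6%; all rows 30.8%). Its difference within the 10 parts was 21.5 points (16.8 to 26.2), and for both lists it was 10.8 points (6.54 to 15.01; all rows 15.5%). Shared rows of the 2 wild-type lists overlap each other by rule, so their nearly equal rates follow from the choice. The lists differed in their unshared rows, and the 34.5 points for TRE-Msi1 replicate 1 rested on those of wild-type replicate 2. Unshared rows of wild-type replicate 1 met TRE-Msi1 replicate 1 at 42.1%, and unshared rows of wild-type replicate 2 at 5.10%. Why the wild-type lists differ in this was not tested.

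**Figure D3:**
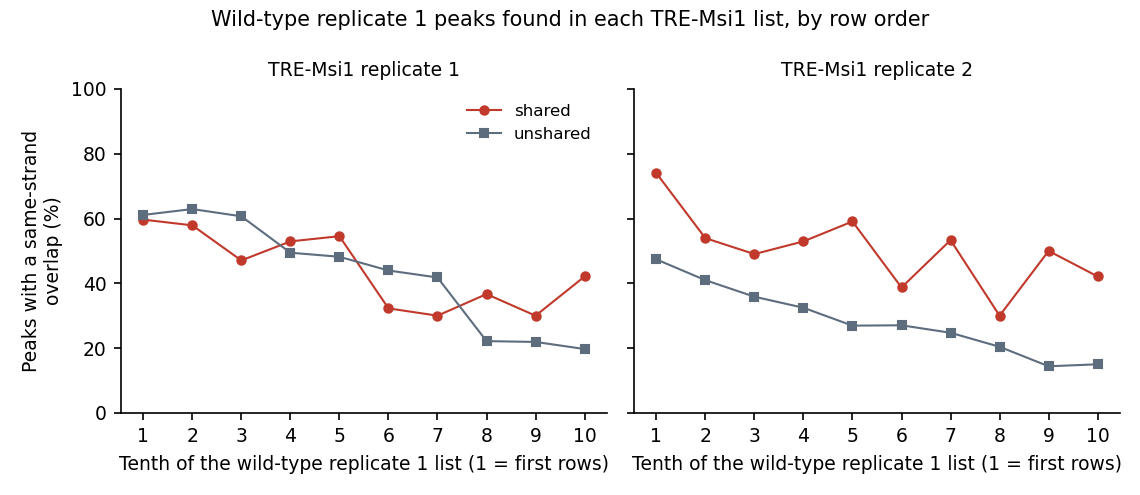
Share of wild-type replicate 1 peaks with a same-strand overlap in each TRE-Msi1 list (vertical axis, percent) by place in the list, in 10 equal parts of the row order (horizontal axis, first rows at 1), for shared (circles) and unshared (squares) peaks. For TRE-Msi1 replicate 1 the lines cross, at 59.7% and 61.1% in the first part, and for replicate 2 the shared peaks are higher in all 10 parts, at 74.0% and 47.4% in the first.

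Where a shared region met a TRE-Msi1 peak, that peak was usually a strong one, though some partners were weak. The median percentile of the partner was 95.2 in TRE-Msi1 replicate 1 (258 regions) and 95.4 in replicate 2 (306 regions). Partners of unshared rows had medians of 69.6 (258 rows) and 73.5 (564 rows). The gap was also there among weak rows. For scores of 3 to 9 the medians were 87.7 for shared and 62.7 for unshared rows in replicate 1, and 91.7 and 63.8 in replicate 2. From 20 to 49 the medians of shared and unshared rows were 97.5 and 88.6 in replicate 1 and 94.8 and 93.0 in replicate 2. At 50 or more, where 3 unshared rows met each list, the medians were 99.6 and 99.9 in replicate 1 and 99.6 and 99.98 in replicate 2, so the shared regions were not higher there. Among the shared regions the wild-type score rose with the score of the partner, with Spearman's rho 0.43 for replicate 1 and 0.34 for replicate 2. In unshared rows rho was 0.17 for replicate 1 and 0.29 for replicate 2. These correlations describe positions that lie on the same RNAs and carry no p-value.

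The position of the partner differed between the TRE-Msi1 libraries. Peaks with a gap of at most 100 bp between edges were taken, so centres can lie farther apart. Read along the RNA, the nearest such TRE-Msi1 replicate 2 peak was centred a median of 2 bp downstream of the shared region (356 regions, quartiles -11 and 27 bp). The wild-type replicate 1 peak was centred a median of 0.5 bp upstream. The rule requires that peak to overlap the region, so its distance is bounded more tightly than those of the TRE-Msi1 peaks. The nearest such TRE-Msi1 replicate 1 peak was centred a median of 37.5 bp upstream (384 regions, quartiles -62.5 and -5.5 bp), and 301 of the 384 (78.4%, 74.0 to 82.2%) lay upstream. The displacement had the same direction on both strands, with medians of -46 bp on the plus and -33 bp on the minus strand. It was not particular to the shared regions, since unshared rows of wild-type replicate 1 had a median of -36 bp (2840 rows). When TRE-Msi1 replicate 1 was moved downstream by 36 bp, a setting chosen after seeing this, 59.5% of shared regions overlapped it and 37.5% overlapped both lists. The source of the displacement was not tested.

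**Figure D4:**
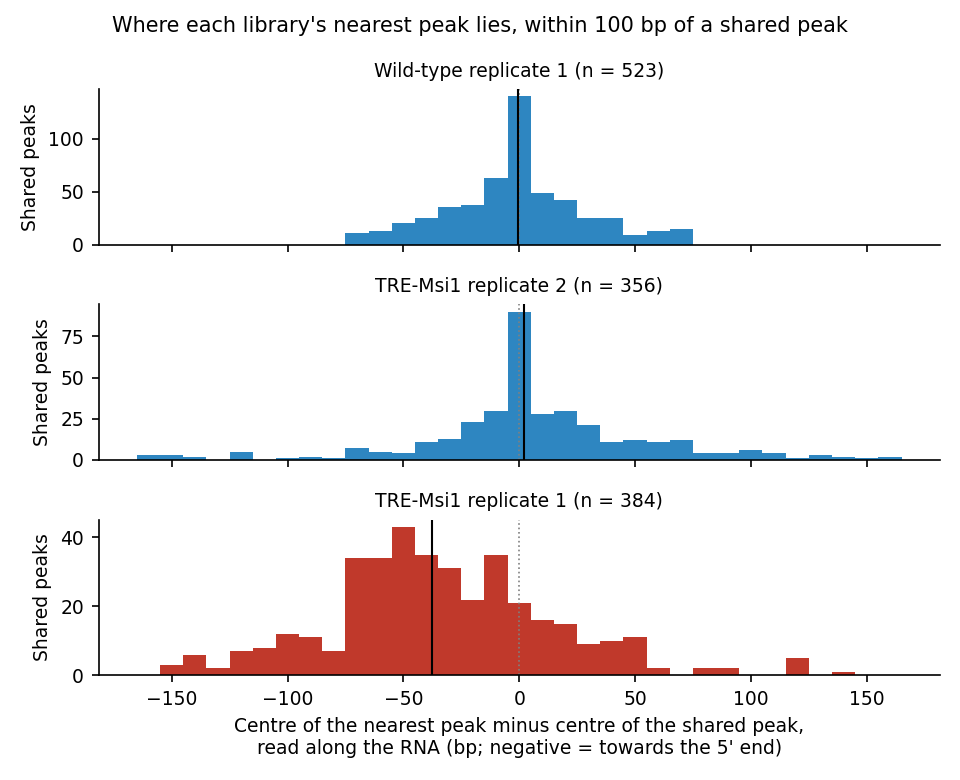
Distance from the centre of each shared peak to the centre of the nearest same-strand peak of wild-type replicate 1, TRE-Msi1 replicate 2 and TRE-Msi1 replicate 1 (horizontal axis, bp along the RNA, negative towards the 5′ end). Peaks with a gap of at most 100 bp between edges are counted in bins of 10 bp (vertical axis, shared peaks). Wild-type replicate 1 peaks overlap the shared peak by rule. A few TRE-Msi1 replicate 2 distances beyond the outer bins are not drawn. Black lines mark the medians, -0.5, 2 and -37.5 bp.

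Near-exact coincidence of positions was more frequent among the unshared rows than among the shared regions. Centres within 1 bp of a TRE-Msi1 replicate 2 peak were found in 37 of 306 shared regions that overlapped that list (12.1%, 8.90 to 16.2%) and in 168 of 564 unshared rows (29.8%, 26.2 to 33.7%). Among unshared rows with the lowest score, 3, it was 48 of 98 (48.98%, 39.3 to 58.7%), and 0 of 7 shared regions of that score. From 6 to 9 the shares of shared and unshared rows were 9.52% of 63 and 22.5% of 160, and from 15 to 29 they were 12.3% of 65 and 28.9% of 45. From 10 to 14 they were close, at 16.98% of 53 and 17.6% of 102, and at 30 or more only 9 unshared rows overlapped that list, 3 of them within 1 bp. Whether wild-type replicate 2 and TRE-Msi1 replicate 2 have reads in common was not tested, and it would bear on what their overlap means. With overlaps within 1 bp not counted, an alternative chosen after seeing the data, 51.4% of shared regions met TRE-Msi1 replicate 2. The difference from unshared rows of equal score was then 31.6 points (26.4 to 36.8), close to the 34.0 points with them. TRE-Msi1 replicate 1, whose peaks were displaced upstream as described above, had centres within 1 bp for 4 of 258 shared and 2 of 258 unshared rows.

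Shared regions without an overlap in a TRE-Msi1 list mostly had a peak of that list nearby. Of the 265 regions not overlapped by TRE-Msi1 replicate 1, 126 (47.5%) had one of its peaks within 100 bp and 159 (60.0%) within 500 bp. Of the 217 not overlapped by replicate 2, 50 (23.0%) had a peak within 100 bp and 115 (53.0%) within 500 bp. For unshared rows the shares within 500 bp were 12.6% of 4797 and 15.4% of 4491. Neither these shares nor the next were matched for score, whose median was 13 in shared regions and 5 in unshared rows. The unshared rows here are those of wild-type replicate 2, which met TRE-Msi1 replicate 1 at 5.10%, against 42.1% of unshared rows of wild-type replicate 1. Only 50 of 523 shared regions (9.56%) had no TRE-Msi1 peak within 500 bp, against 68.5% of unshared rows.

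The strongest of these 50 regions lay on chromosome 10 (minus) at 11211877 to 11211951. Its score was 83, its partner stood in row 140 of wild-type replicate 1, and the nearest TRE-Msi1 peaks were 19054 bp (replicate 1) and 207404 bp (replicate 2) away. It was followed by chromosome 4 (minus) at 49216999 to 49217073, with a score of 36 and gaps of 173663 and 55512 bp. The region on chromosome 7 (minus) at 52378336 to 52378410 scored 32, with gaps of 2608 and 3245 bp. Those on chromosome 9 (plus) at 64024995 to 64025069 and chromosome 14 (plus) at 80414071 to 80414145 scored 29 and 27. Their nearest TRE-Msi1 peaks lay 669 and 1102 bp, and 7732 and 2349 bp, away. These 5 regions are the highest by score among the 50, and regions of lower score can lie farther from any TRE-Msi1 peak.

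Of the 5 strongest unshared rows, 4 lay within 141 bp of a wild-type replicate 1 peak. After the 45S and mitochondrial rows given above, they were chromosome 10 (plus) at 82417933 to 82418007 with a score of 115, chromosome 2 (minus) at 22600250 to 22600324 with 99, and chromosome 9 (plus) at 123371281 to 123371355 with 83. The chromosome 2 and chromosome 9 rows missed a wild-type replicate 1 peak by 11 and 24 bp. The chromosome 10 row was 57493 bp from one. Of all 5055 unshared rows, 331 (6.55%) lay within 500 bp of a replicate 1 peak.

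Most shared regions had no other shared region within 10 kb on the same strand. Counting wild-type replicate 2 rows of either kind, they had a neighbour more often than unshared rows did. With regions up to 10 kb apart on a strand joined, the 523 regions formed 409 stretches, of which 338 held 1 region and 71 held 2 or more. Another shared region lay within 10 kb for 185 regions (35.4%, 31.4 to 39.6%). Repeated and overlapping rows count as neighbours here, so some stretches of 2 regions are 1 interval listed again or 2 overlapping rows. With identical intervals counted once, the share was 33.2% (29.3 to 37.4%) and the number of stretches stayed at 409. Another wild-type replicate 2 row of either kind lay within that distance for 54.3% of shared and 19.4% of unshared rows. At equal score the weighted shares were 52.2% and 27.3%, a difference of 24.97 points (19.6 to 30.3). Grouped regions had a median score of 17 and single ones of 11. TRE-Msi1 replicate 2 had a peak over 64.3% of the 185 grouped and 55.3% of the 338 single regions, and replicate 1 over 47.6% and 50.3%. Peaks in both lists covered 31.4% (25.1 to 38.4%) of grouped and 31.1% (26.4 to 36.2%) of single regions, which did not differ beyond their intervals.

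The stretch with most shared regions lay on the plus strand of chromosome 19 at 8798558 to 8800520. It held 7 of them within 1963 bp, with scores of 26, 47, 86, 14, 17, 11 and 50 from left to right. Wild-type replicate 1 had 7 peaks in it and wild-type replicate 2 had 8. The stretch was chosen for its number of shared regions, so the pairing of wild-type peaks there follows from the choice. TRE-Msi1 replicates 1 and 2 had 6 peaks each in the stretch, and they overlapped 2 and 5 of the shared regions. Peaks of TRE-Msi1 replicate 1 there began upstream of the shared regions, as in the list as a whole.

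**Figure D5:**
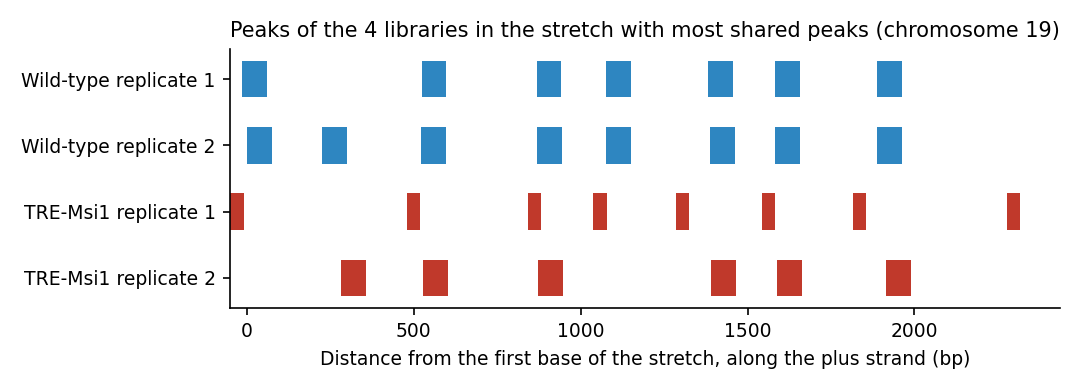
Peaks of the 4 libraries on the plus strand around the chromosome 19 stretch with 7 shared regions (horizontal axis, bp from its first base; each bar is 1 peak as deposited). The wild-type bars stand in 7 matching pairs, which follows from the choice of the stretch. TRE-Msi1 replicate 2 overlaps 5 of the shared regions and TRE-Msi1 replicate 1 overlaps 2.

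Another 5 stretches held 5 shared regions each. Those of chromosome 17 at 39983520 to 39984808 and of the mitochondrial genome at 828 to 2594 belong to the abundant RNAs described above. On chromosome 1 (plus) at 162966039 to 162968586 the scores were 69, 45, 42, 103 and 29. TRE-Msi1 replicates 1 and 2 had peaks over 1 and 3 of these regions and over 0 of them together. On chromosome 7 (minus) at 52378336 to 52382745 the scores were 32, 48, 49, 23 and 10. TRE-Msi1 replicates 1 and 2 had peaks over 2 and 3 of these, and both over 2. A further stretch of chromosome 7 (plus), which ties in number and was named after its values were seen, lay at 138249912 to 138265003. It held 5 weak regions with scores of 7, 5, 16, 13 and 7 over 15092 bp. Their median score of 7 was the lowest among the 5 stretches.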

How the data were processed

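Per the submitters' processing notes, Bowtie, HOMER and mm9 were used. The sources used here do not give versions, settings or roles. The authors deposited 1 peak list per library with chromosome, start, end, strand and a score of unstated unit. Scores served only to rank or stratify rows within a list. The regions and the comparisons were chosen with earlier results of these data known.

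Same-strand overlap of at least 1 bp was computed in Python 3.11.15 with numpy 2.4.6, pandas 2.3.3 and scipy 1.17.1. It differed from bedtools 2.31.1 for 0 rows in 24 comparisons, and the weighted difference (Sato's variance) was tested on simulated overlaps. When several peaks met a region, the one sharing most bases, or with the smallest gap, was its partner. Named regions are the 10 highest-scoring shared regions, overall and outside the abundant RNAs, the 5 highest in both TRE-Msi1 lists, without a TRE-Msi1 peak within 500 bp and unshared, and the 5 stretches at 10 kb with most regions (ties by highest score). Depth is unknown. Sequence, gene annotation, UTR and motif content were not analysed here, since they need mm9.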

Additional observations from a re-analysis of the deposited data

How the results depend on the processing

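The number of shared regions lay between 368 and 526 under the 6 alternatives tried, and the number of stretches between 393 and 436. With a reciprocal overlap of 50%, 18.25% of regions met TRE-Msi1 replicate 1, 51.5% replicate 2, 60.0% either and 9.75% both, and the matched differences from unshared rows were 13.0 (replicate 1), 37.1 (either) and 7.74 points (both). This setting also applies between the wild-type lists and leaves 400 regions. It asks for 50% of the wider peak, so a 40 bp peak of TRE-Msi1 replicate 1 must lie almost wholly within a 75 bp region. With all peaks 75 bp wide the shares were 60.8% (replicate 1), 81.3% (either) and 38.0% (both), with differences of 43.8 (replicate 1) and 24.9 points (both). With TRE-Msi1 replicate 1 limited to its highest-scoring rows, as many as replicate 2 has, they were 35.9%, 69.98% and 24.5%, with differences of 23.3, 43.5 and 13.8 points (replicate 1, either, both). With it moved downstream they were 59.5%, 80.5% and 37.5%, with differences of 44.6 (replicate 1) and 25.5 points (both). Without matching, the differences were 44.2 (replicate 1), 47.4 (replicate 2), 62.3 (either) and 29.3 points (both). Within 10 equal parts of the wild-type replicate 2 row order they were 39.7, 41.3, 55.8 and 25.2 points. Read from wild-type replicate 1, they were -1.06, 21.5, 9.68 and 10.8 points within 10 parts of the row order, -0.96, 20.4, 9.87 and 9.52 within 50 parts, and, unmatched, 8.63 (replicate 1) and 21.2 (either). Only the replicate 1 difference changed sign, and the cause was not tested. With TRE-Msi1 replicate 2 peaks centred within 1 bp not counted, 51.4% of regions met replicate 2 and 72.8% either list. With TRE-Msi1 replicate 1 used alone in place of both lists, the share was 49.3% and the difference 34.5 points. With replicate 2 alone they were 58.5% and 34.0 points. Without wild-type replicate 1 or 2 no shared region exists. Another shared region lay within 1 kb for 27.5% and within 50 kb for 40.3%. The alternatives read from wild-type replicate 1, by row order, moved downstream, without centres within 1 bp or with 1 row per stretch in both kinds were chosen after seeing the data. No paired analysis was possible because no result comes from a test between the groups. Unknown depth limits each absence of a peak to these lists.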

Other observations

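Apart from the mitochondrial genome, the shared regions were spread over all autosomes and the X chromosome. Among these chromosomes, the share of wild-type replicate 2 rows that were shared was highest on chromosome 6, with 36 of 294 rows (12.2%, 8.98 to 16.5%), and lowest on chromosome 12, with 10 of 190 (5.26%, 2.88 to 9.42%), with intervals that overlapped. In the mitochondrial genome 5 of 12 rows were shared. The Y chromosome, with 4 rows, is left out of this order. Chromosome 11 held 41 regions, 9.76% of its rows. Plus-strand rows were 53.7% of shared and 50.6% of unshared rows.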
